A study of Mus musculus with 16 samples.

Results

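The features described here are 11790 long noncoding RNAs (lncRNAs) of the NONCODE catalogue that lie across the span of a single protein-coding or other mRNA-table gene, called the host below. They were chosen from the 77985 rows of the lncRNA table by 3 conditions: a NONCODE transcript identifier, a position that overlaps the span of exactly 1 gene of the mRNA table, and a mean of at least 0.5 CPM (counts scaled to a common library size, described with the methods) over 15 libraries. No change between groups entered the choice. Of 67443 NONCODE rows, 26171 overlapped exactly 1 gene at any level. The limit on the mean separated neighbours with nearly equal values: NONMMUT132621.1 in Loxl1 had 0.5005 CPM and NONMMUT107190.1 in B3galt1 had 0.5004 CPM, and the first left out were NONMMUT111448.1 in Dchs2 with 0.4997 CPM and NONMMUT113541.1 in Sfrp2 with 0.4996 CPM. The 11790 lncRNAs lay on 5467 hosts.

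The libraries came from epididymal white fat of male C57BL/6 mice, bought at 6 weeks of age and about 22 g, and fall into 4 groups of 4. One group received metformin while on a high-fat diet (HFD), one received resveratrol while on HFD, one received HFD alone and one a normal diet. Per the labels' protocols the HFD held 60% fat and was given for 8 weeks before treatment, and the drugs were given for 6 weeks. All 3 HFD groups therefore share the diet, and both drug groups are set against the same HFD libraries. The columns of 1 HFD library and 1 metformin library carry a code found in no sample title, so their group comes from the prefix of the column name; they are called HFD unmatched and metformin unmatched. Nothing in the labels says that the libraries of a group are separate animals, so a p-value here covers spread between samples that may be technical.

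The mRNA table held 13350585 to 20531032 counts per library and the lncRNA rows added 3550737 to 5828645. Adipocyte genes fixed as markers (17 genes) added up to 1413 CPM in resveratrol 4, where Crisp1, a secreted protein of the epididymis, stood at 12130 CPM, against 23670 to 45350 CPM in the other 15 libraries. Resveratrol 4 is left out of all values below. Crisp1 was also at 15.2 to 16.3 CPM in every metformin library, at 0 in every HFD library and at most 0.178 CPM elsewhere. A list of 17 epididymis genes, 15 of them found, summed to 27.5 to 65.3 CPM with metformin and 0.411 to 1.28 CPM on HFD. It reached 0.382 to 296.7 CPM on normal diet and 0.641 to 7.94 CPM in resveratrol 1 to 3. The part of this signal in the metformin results was not tested. The list of 37 macrophage and lysosome genes summed to 17930 to 20360 CPM in HFD 1 to 3 and 9408 CPM in HFD unmatched, against 6144 to 10290 CPM in the metformin, resveratrol and normal-diet libraries. For 25 genes of ciliated epithelium the sum was 764 CPM in resveratrol 2, 1313 CPM in normal diet 2 and 650 to 1965 CPM in 3 metformin libraries (2, 4 and unmatched), and it was 21.9 to 37.1 CPM in the other 10 libraries. Retina and skeletal muscle, which the protocol texts also mention, were low: their lists of 10 genes each reached at most 14.2 and 134.9 CPM. In whole tissue, fewer cells of a type and less RNA per cell cannot be told apart.

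A lncRNA inside a gene can be a transcript of its own, with its own start, or a piece of the host's primary transcript, such as a retained intron, an alternative last exon or an extension past the annotated end. Pieces of nascent or retained-intron RNA are largely nuclear, whereas spliced mRNA is exported and translated. If such a feature is part of the host transcript, its level moves with the host's, and if it has its own start, end or decay, the pair can separate. White fat stores and releases lipid under control of insulin and catecholamines, and it takes up macrophages as it expands on a high-fat diet.

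A single unspliced block made up 9751 of the 11790 lncRNAs (82.71%), and 10514 lay wholly inside the host's span. Their median length was 2069 bases (202 to 20593), against a median host span of 88692.5 bases. The strand of the host was known for 8929 of them, from RefSeq, and the lncRNA table gives no strand of its own. Of these, 6081 were internal single blocks, 1143 ended within 100 bases of a 3′ end of the host, 934 were internal and spliced, 400 reached past the host's 5′ end and 371 past its 3′ end; the other 2861 are described as host strand not known. A total of 1637 overlapped another member, 3100 hosts carried 1 member, and Naaladl2 carried the largest number, 71. The sources used here do not say how a read that fits both a lncRNA and its host was counted, or whether strand was used, so a lncRNA and its host may share reads.

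Most of the lncRNAs were far below their host. Their median level was 2.68 CPM, 1670 reached 10 CPM and 57 reached 100 CPM. Per kilobase of length, the median lncRNA stood at 11.5% of its host (CPM per kilobase, mean over the 15 libraries), and 841 were above it. Counted separately, 511 had a host under 1 CPM, and these may be among the 841.

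Members that cover the stretch just upstream of a RefSeq start of the host are shown first, because there a lncRNA and sequence before a start of the host overlap. The 4 below were chosen after their values were seen: their ratio to the host changed between HFD and normal diet. Each is the 250 bases before the host's RefSeq start (build GRCm38.p6), written 5′ to 3′ on the host's strand. Capitals mark the bases between the start and end of the lncRNA.
Pnpla8, chr12:44268904-44269153, plus strand: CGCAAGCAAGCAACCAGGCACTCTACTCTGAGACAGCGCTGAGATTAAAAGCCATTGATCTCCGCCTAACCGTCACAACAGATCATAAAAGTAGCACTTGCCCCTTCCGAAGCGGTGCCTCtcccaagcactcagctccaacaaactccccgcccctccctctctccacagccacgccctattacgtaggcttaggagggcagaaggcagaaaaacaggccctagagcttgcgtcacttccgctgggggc
Rnh1, chr7:141172852-141173101, minus strand: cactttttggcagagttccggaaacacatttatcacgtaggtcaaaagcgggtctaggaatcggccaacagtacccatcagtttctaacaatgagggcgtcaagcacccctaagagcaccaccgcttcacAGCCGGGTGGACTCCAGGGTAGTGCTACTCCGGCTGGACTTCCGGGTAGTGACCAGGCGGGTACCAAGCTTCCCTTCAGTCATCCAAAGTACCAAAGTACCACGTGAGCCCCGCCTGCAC
Igf1, chr10:87860861-87861110, plus strand: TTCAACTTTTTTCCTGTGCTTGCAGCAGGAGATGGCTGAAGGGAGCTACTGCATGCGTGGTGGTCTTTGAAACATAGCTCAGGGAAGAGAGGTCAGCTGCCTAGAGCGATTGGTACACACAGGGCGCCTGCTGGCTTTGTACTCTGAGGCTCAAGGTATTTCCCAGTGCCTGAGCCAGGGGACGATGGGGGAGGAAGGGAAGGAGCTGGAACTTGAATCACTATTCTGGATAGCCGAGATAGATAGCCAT
Ptpmt1, chr2:90918051-90918300, minus strand: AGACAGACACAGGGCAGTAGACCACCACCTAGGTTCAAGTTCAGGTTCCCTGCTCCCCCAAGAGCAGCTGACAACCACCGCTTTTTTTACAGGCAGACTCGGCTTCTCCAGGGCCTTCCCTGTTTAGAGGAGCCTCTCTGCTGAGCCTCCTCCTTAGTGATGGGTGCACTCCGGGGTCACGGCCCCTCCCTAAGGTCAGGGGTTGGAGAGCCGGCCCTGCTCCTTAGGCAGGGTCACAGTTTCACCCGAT
NONMMUT141857.1 covers the first 121 bases of the Pnpla8 window and ends within it. NONMMUT064181.2 spans the 120 bases of the Rnh1 window nearest the start, and NONMMUT006717.2 and NONMMUT038418.2 cover the whole windows of Igf1 and Ptpmt1. NONMMUT064181.2 is spliced (408 bases between 141169236 and 141172971), and which of the 120 bases are exon is not known here. In the mRNA table the spans of all 4 hosts begin before these RefSeq starts. The spans of Pnpla8 (44221370 to 44322532) and Igf1 (87858265 to 87937042) hold the whole window and the whole lncRNA. Those of Rnh1 and Ptpmt1 begin within the window, at 141172857 and 90918258, and their lncRNAs reach past the 5′ end of the span. Part of each of these windows, too, therefore lies inside the host's span. The windows were searched on both strands for the letters CCAAT (the CCAAT box), and TATAAA (the TATA box) and GGGCGG (the GC box) were searched in the same way; none of these words overlaps another. The GC box had 1 match, in Pnpla8, and the CCAAT box had 1 match, in Igf1; the other searches found none. Of 32851 such windows in the RefSeq table, 33.8% held the CCAAT box, 12.4% the TATA box and 32.7% the GC box.

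Over all members, 343 spanned, from start to end, 50 or more bases of the upstream window of their host, and 337 of these passed the filter on low counts. Their ratio to the host was lower on HFD in 43 (12.8%) and higher in 2, against 14.7% lower and 0.941% higher among the 14666 lncRNA-host pairs tested in the whole table. The ratio is the log2 of lncRNA CPM plus 0.5 over host CPM plus 0.5 in each library, tested with limma. The share among these 337 is close to that of the whole table.

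Pnpla8 encodes a calcium-independent phospholipase. The lncRNA NONMMUT141857.1 (chromosome 12, 44266917 to 44269024) had 6.79, 6.63, 4.50 and 4.75 CPM in metformin 1, 2, 4 and unmatched. Resveratrol 1 to 3 had 3.93, 3.64 and 6.63 CPM. It had 2.08, 2.05, 1.20 and 2.47 CPM in HFD 1, 2, 3 and unmatched, against 6.76, 4.75, 5.73 and 4.46 CPM in normal diet 1 to 4. The 4 HFD libraries are the lowest 4, below every library of the other groups. The lncRNA fell on HFD relative to normal diet by 1.47 ± 0.26 on the log2 scale (SE, adjusted p = 0.0018) and rose with metformin by 1.54 ± 0.26 (adjusted p = 0.0154) and with resveratrol by 1.28 ± 0.27 (adjusted p = 0.0348). Pnpla8 itself changed by -0.01 (adjusted p = 0.971) on HFD, 0.07 with metformin and 0.16 with resveratrol, and none of these passed. The ratio fell by 1.28 on HFD (adjusted p = 0.00329) and rose by 1.28 with metformin (adjusted p = 0.0452). The HFD calls held in each alternative run, whereas the metformin call of the lncRNA was lost without HFD 2 or without HFD 3, that of the ratio in 12 of 20 alternatives, and the resveratrol call without any one of HFD 1 to 3 or resveratrol 1 to 3.

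Igf1 encodes insulin-like growth factor, which fat secretes. NONMMUT006717.2 (chromosome 10, 87859266 to 87862789) had 11.04, 11.5, 13.2 and 9.94 CPM in HFD 1, 2, 3 and unmatched, against 6.76, 11.7, 5.46 and 5.22 CPM in normal diet 1 to 4. Igf1 itself had 226.8, 235.2, 301.6 and 182.7 CPM on HFD, against 408.8, 450.9, 373.9 and 317.6 CPM on normal diet. The lncRNA levels overlapped through normal diet 2, whereas the host levels did not overlap. The host fell by 0.71 ± 0.18 on the log2 scale (adjusted p = 0.0143), the lncRNA change of 0.65 ± 0.32 did not pass (adjusted p = 0.149), and the ratio rose by 1.40 ± 0.23 (adjusted p = 0.00201). Scaled to the lncRNA table, the lncRNA passed as well, with a rise of 1.11 (adjusted p = 0.0495). With drug, NONMMUT006717.2 had 3.84 to 9.004 CPM in the metformin and 3.75 to 8.54 CPM in the resveratrol libraries, below all 4 HFD libraries, but the ratio changes of -0.79 and -1.10 did not pass (adjusted p = 0.103 and 0.109).

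Ptpmt1 encodes a mitochondrial phosphatase needed for cardiolipin synthesis. NONMMUT038418.2 (chromosome 2, 90918043 to 90920491) had 3.55, 3.43, 2.40 and 6.51 CPM in HFD 1, 2, 3 and unmatched, against 8.61, 9.91, 8.67 and 6.92 CPM in normal diet 1 to 4, and Ptpmt1 had 28.5, 27.1, 24.3 and 28.6 CPM on HFD, against 21.7, 12.7, 17.4 and 18.9 CPM on normal diet. The lncRNA was lower and the host higher in the 4 HFD libraries than in any normal-diet library. The lncRNA fell by 1.11 on the log2 scale (adjusted p = 0.00665), the host rose by 0.62 (adjusted p = 0.0298) and the ratio fell by 1.71 ± 0.24 (adjusted p = 0.00105). The call on the lncRNA alone was lost when library sizes came from the lncRNA table. Rnh1 encodes the ribonuclease inhibitor. Its lncRNA NONMMUT064181.2, with 114 bases past the 5′ end of the host, had 0.563 to 0.760 CPM on HFD, against 0.615 to 1.21 CPM on normal diet. The ratio fell by 1.09 (adjusted p = 0.0146), although the ratios on HFD and normal diet overlapped. Rnh1 had 198.1, 213.1 and 229.1 CPM in HFD 1 to 3 and 97.2 CPM in HFD unmatched, against 86.0 to 133 CPM on normal diet. In HFD unmatched the macrophage list was also lowest of the HFD group, and the part of that library in the result was not tested. Without HFD 3, after centring (described below) and without the 5 libraries over 500 CPM of the ciliated list, the call on the Rnh1 ratio was lost.

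On HFD relative to normal diet, most lncRNAs that changed were lower, and by the scaling used here they stood lower as a whole. Of 11674 members that passed the filter, 281 rose and 2887 fell (27.14%), with 22.9% called in either direction among all 24385 lncRNA features tested (2.32% higher and 20.6% lower). Of the 5180 hosts of these members, 719 rose and 699 fell, against 13.8% higher and 9.34% lower (23.1% called) among all 17535 genes. The median log2 change was -0.42 over the members and -0.47 over all lncRNA features, and -0.04 over the hosts. Library sizes here come from the mRNA table, so this shift of the whole lncRNA table is counted as a change. With library sizes from the lncRNA table itself, the median became 0.01, and 742 members rose and 372 fell, with 8.93% of all features called; 273 of those that rose and 372 of those that fell were called in the same direction by both scalings. DESeq2 with its own size factors called 909 members higher and 478 lower, and its share over all features is not given here. The majority of lower lncRNAs is therefore relative to the mRNA libraries.

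Each pair was then followed over both tables. Of 11317 pairs with a tested host, 172 had both rise and 1004 had both fall on HFD. The lncRNA fell and the host rose in 89, and the lncRNA rose and the host fell in 4. In 1748 the lncRNA fell with no call on the host, in 97 it rose with none, the host alone rose in 1118 and fell in 935, and in 6150 neither was. The log2 changes had the same sign in 68.75% of the pairs, and across pairs Pearson r was 0.5467 and Spearman rho 0.5403; lncRNAs of 1 host share its value, both tables share the libraries, and pairs are not replicates. Over the 15 libraries, the SD of the log2 ratio was below that of the lncRNA alone in 45.3% of members, so dividing by the host did not narrow the spread for most of them.

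**Figure D1:**
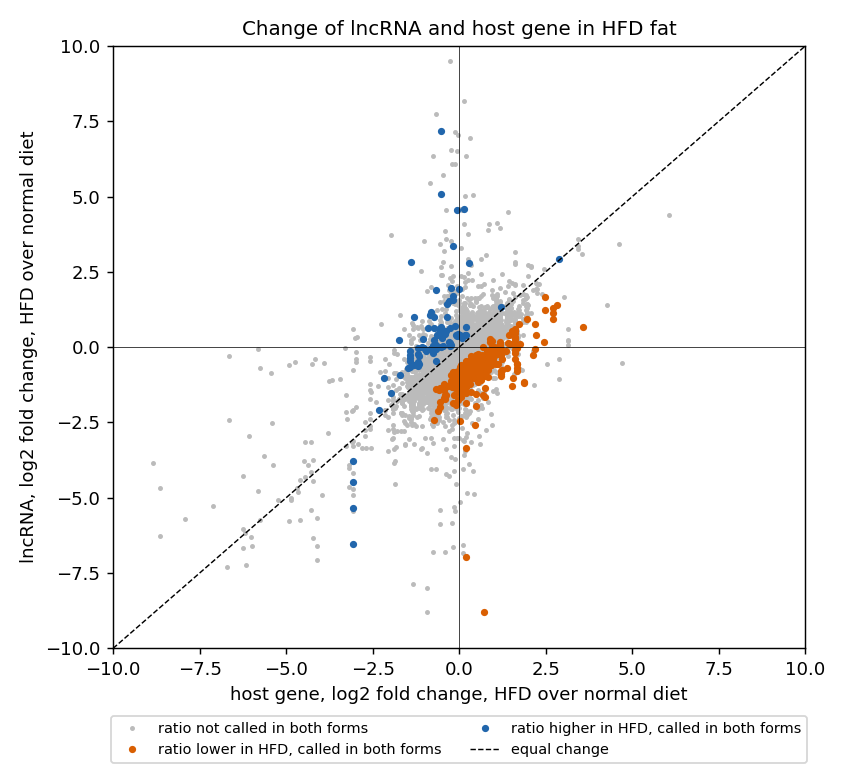
Log2 fold change of each lncRNA (vertical axis) against that of its host (horizontal axis), HFD against normal diet, with 1 point per pair for 11317 pairs, 1 of them outside the axes; colour marks ratios called in the same direction with and without centring of the libraries. The cloud runs along the diagonal (Pearson r = 0.5467) and sits below it, with a median lncRNA change of -0.42 and a median host change of -0.04 when library sizes come from the mRNA table; with library sizes from the lncRNA table the median lncRNA change is 0.01.

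The ratio test asks directly whether a lncRNA departs from its host. The ratio rose in 91 and fell in 1834 of 11674 pairs on HFD (16.49%), against 15.7% of the 14666 pairs of the whole table (0.941% higher, 14.7% lower); the share among members was near that background. At an unadjusted p under 0.05 the ratio differed in 3608 members, against 29.9% of all pairs. The median change was -0.25 over members and -0.24 over all pairs. After each library was centred on its own median log2 ratio, a step added after the data were seen, 227 were higher and 349 lower, with 4.91% of all pairs called. Called in the same direction by both forms were 90 higher and 349 lower. The 1834 lower calls thus hold the shift of the whole table as well.

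The ratio was also read by where the lncRNA lies in the host. Among the 6055 tested internal single blocks the ratio was lower on HFD in 19.3%, with a median change of -0.29. Among the 1097 tested lncRNAs at a 3′ end it was lower in 4.47%, with a median of -0.08. Those past the 3′ end were lower in 6.27%, those past the 5′ end in 12%, and the internal spliced ones in 15.3%. Centring shifts all medians by the same amount: the median was then 0.20 at a 3′ end, with 46 higher and 9 lower, and -0.02 for internal single blocks, with 94 higher and 220 lower. These shares describe the classes and were not tested against each other.

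By library, the median log2 ratio of the internal single blocks was -3.66 to -3.57 in the metformin and -3.62 to -3.56 in the resveratrol libraries. It was -3.74, -3.69, -3.94 and -3.71 in HFD 1, 2, 3 and unmatched, against -3.45, -3.41, -3.46 and -3.50 in normal diet 1 to 4. HFD 3 was lowest, and the HFD and normal-diet libraries did not overlap, nor did HFD libraries overlap those of either drug. At a 3′ end the medians were -3.44, -3.38, -3.46 and -3.48 on HFD, against -3.19, -3.17, -3.28 and -3.40 on normal diet, where normal diet 4 overlapped the HFD range.

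**Figure D2:**
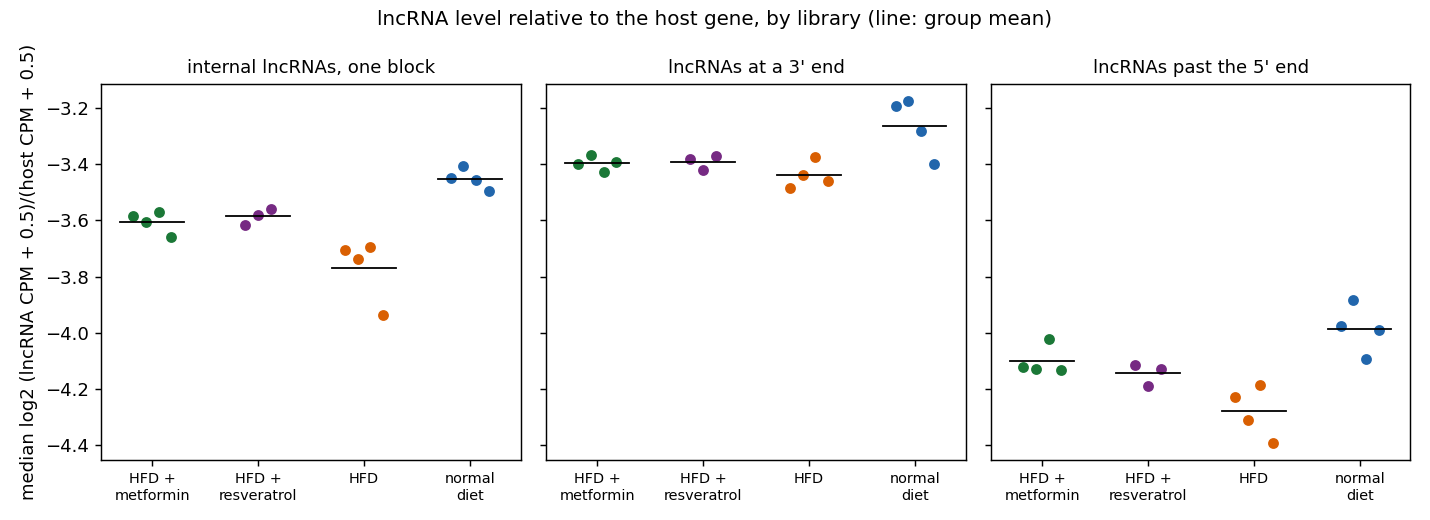
Median log2 ratio of lncRNA to host in each of 15 libraries (points), for 3 position classes, with the groups in the order metformin, resveratrol, HFD and normal diet and a line at each group's mean. For internal single blocks the 4 HFD libraries (-3.94 to -3.69) lie below the 4 normal-diet libraries (-3.50 to -3.41), and for lncRNAs at a 3′ end the 2 groups overlap.

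The most abundant member lies on a gene of fatty acid synthesis. NONMMUT034843.2 (chromosome 19, 44394455 to 44397265) lies on Scd1, the stearoyl-CoA desaturase that makes monounsaturated fatty acids. It had 39620, 22250, 46140 and 36760 CPM in metformin 1, 2, 4 and unmatched. Resveratrol 1 to 3 had 31600, 37600 and 43020 CPM. It had 24360, 28640, 26960 and 28820 CPM in HFD 1, 2, 3 and unmatched, against 61800, 35120, 30960 and 38730 CPM in normal diet 1 to 4. Through these libraries it stood at 2.01 to 2.36 times the CPM of Scd1, and the 4 HFD libraries were below all normal-diet ones. Neither change passed: -0.62 ± 0.23 for the lncRNA (adjusted p = 0.0641) and -0.73 ± 0.27 for Scd1 (adjusted p = 0.0693), with the ratio at 0.11 (adjusted p = 0.089). After centring, the ratio was higher on HFD by 0.38 (adjusted p = 0.00641).

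Dgat2 carried 2 lncRNAs with different values on the same gene. It encodes the acyltransferase that completes triglyceride synthesis, and it had 1348, 1109, 1321 and 1083 CPM in HFD 1, 2, 3 and unmatched, against 244.5, 127.0, 169.5 and 340.9 CPM in normal diet 1 to 4. NONMMUT062889.2 (chromosome 7, 99153658 to 99154351) had 425.3, 364.5, 449.4 and 307.9 CPM on HFD, against 75.6, 40.2, 44.3 and 95.6 CPM on normal diet. Both sets of values were higher in each HFD library than in any normal-diet library: the lncRNA rose by 2.60 ± 0.29 on the log2 scale (adjusted p = 0.000277), Dgat2 by 2.46 ± 0.29 (adjusted p = 0.000379), and the ratio change of 0.11 did not pass (adjusted p = 0.296), although after centring it was 0.39 and passed (adjusted p = 0.0189). NONMMUT062890.2 (chromosome 7, 99176456 to 99179128) had 26.3, 19.0, 15.1 and 24.6 CPM on HFD, against 24.2, 4.65, 12.5 and 34.6 CPM on normal diet. Its groups overlapped, its change of 0.17 ± 0.44 did not pass (adjusted p = 0.808), and its ratio to Dgat2 fell by 2.09 ± 0.27 (adjusted p = 0.000846). This second lncRNA was picked after its values were seen.

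On Hipk2, Cav1 and Insr an abundant lncRNA and its host were called in the same direction. NONMMUT056489.2 reaches past the 3′ end of Hipk2, a nuclear protein kinase, and had 374.2 to 420.2 CPM on HFD, against 145.1 to 170.0 CPM on normal diet; it rose by 1.34 ± 0.16 (adjusted p = 0.000297) and Hipk2 by 1.21 ± 0.15 (adjusted p = 0.000417). NONMMUT055857.2 ends at a 3′ end of Cav1, the main protein of caveolae, and had 994 to 1094 CPM on HFD, against 406.4 to 684.8 CPM on normal diet; it rose by 0.96 ± 0.17 (adjusted p = 0.00208) and Cav1 by 0.74 ± 0.23 (adjusted p = 0.0314). Per kilobase NONMMUT055857.2 stood above its host, at 1014 against 120.1 CPM per kilobase, the latter summed over the host's transcripts, each by its own length. NONMMUT064389.2 on Insr, the insulin receptor, had 87.6 to 122.6 CPM on HFD, against 148.5 to 202.4 CPM on normal diet; it fell by 0.83 ± 0.17 (adjusted p = 0.00421) and Insr by 0.80 ± 0.17 (adjusted p = 0.00638). In all 3 pairs the groups of the lncRNA did not overlap. The ratio did not pass for Cav1 (adjusted p = 0.236) or Insr (adjusted p = 0.814), and for Hipk2 it rose by 0.13 (adjusted p = 0.0406), a call lost in 12 of 19 alternatives. After centring, the ratio changes were 0.40 for Hipk2 (adjusted p = 0.00446), 0.50 for Cav1 (adjusted p = 0.0557) and 0.25 for Insr (adjusted p = 0.056). The call on the Insr lncRNA was lost when library sizes came from the lncRNA table (-0.40, adjusted p = 0.157) and with DESeq2's own size factors.

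Of the 10 lncRNAs with the highest mean level, 2 lie on CT010467.1, a gene under 1 CPM in these libraries, where the RefSeq table (GRCm38.p6) places a ribosomal RNA pseudogene, Rn18s-rs5. NONMMUT144872.1 had 6544 to 11290 CPM in the metformin, 7705 to 11960 in the resveratrol, 9557 to 12460 in the HFD and 7316 to 11600 in the normal-diet libraries, and its host was too low to be tested. The groups overlap and no comparison passed for it. The remaining lncRNAs of the top 10 were on Tns1, Sptbn1, Ppp2r1b and Lrrc58.

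On Ppp2r1b, Pparg and Rtn3 the lncRNA fell while the host change did not pass. NONMMUT069082.2 in Ppp2r1b, a scaffold subunit of protein phosphatase 2A, had 182.6, 195.1, 173.7 and 316.0 CPM in HFD 1, 2, 3 and unmatched, against 558.4, 383.6, 477.5 and 503.3 CPM in normal diet 1 to 4, while the host had 139.7 to 234.6 CPM on HFD and 176.7 to 213.3 CPM on normal diet. The lncRNA was lower in each HFD library and the host ranges overlapped. It fell by 1.15 ± 0.25 on the log2 scale (adjusted p = 0.00672), the host change was -0.03 (adjusted p = 0.946), and the ratio fell by 1.13 ± 0.20 (adjusted p = 0.00376). NONMMUT058486.2 lies inside Pparg, the nuclear receptor that drives adipocyte differentiation, and had 16.7, 15.8, 12.5 and 19.3 CPM on HFD, against 32.2, 29.5, 31.95 and 36.5 CPM on normal diet. Pparg itself had 145.1 to 205.9 CPM on HFD and 125.3 to 244.8 CPM on normal diet, and its change of -0.11 did not pass (adjusted p = 0.744), whereas the lncRNA fell by 1.02 ± 0.23 (adjusted p = 0.00722) and the ratio by 0.92 ± 0.18 (adjusted p = 0.00479). With library sizes from the lncRNA table, the calls on both lncRNAs alone were lost, and with centred libraries both ratio calls were kept (adjusted p = 0.0359 for NONMMUT069082.2 and 0.0383 for NONMMUT058486.2).

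Rtn3, a reticulon that shapes tubules of the endoplasmic reticulum, carried 6 tested members and all 6 had a lower ratio on HFD. The most abundant of them, NONMMUT033750.2, had 31.3, 29.1, 25.5 and 28.1 CPM in HFD 1, 2, 3 and unmatched, against 42.1, 40.6, 45.4 and 48.7 CPM in normal diet 1 to 4. It fell by 0.63 ± 0.11 (adjusted p = 0.00164), Rtn3 changed by 0.21 (adjusted p = 0.296) and the ratio fell by 0.84 ± 0.13 (adjusted p = 0.00164). With library sizes from the lncRNA table and with DESeq2's own size factors the call on NONMMUT033750.2 alone was lost, and that on its ratio was kept. LncRNAs of 1 host are not independent, so the 6 count as one observation of the gene. This host and the 4 of the next paragraph were picked after their values were seen.

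Elsewhere the host rose and the ratio was lower for most or all of its tested lncRNAs. Hdac9, a class II histone deacetylase, rose by 1.61 ± 0.20 on HFD (adjusted p = 0.000417), and of its 24 tested lncRNAs 2 rose and 19 had a lower ratio. The changes of these lncRNAs ran from -0.18 to 1.66, so the largest reached that of Hdac9. They stood at 0.507 to 1.65 CPM, where the added 0.5 CPM lessens their change in the ratio. Bcar3, an adaptor of integrin signalling, rose by 1.66 ± 0.24 (adjusted p = 0.000764), and the ratio was lower for 5 of 5, with lncRNA changes of -0.78 to -0.03. Mrc2, a collagen-binding endocytic receptor, rose by 2.70 ± 0.38 (adjusted p = 0.000657), and the ratio was lower for 3 of 3 although 2 of these lncRNAs rose themselves. Tenm4, a teneurin, rose by 0.98 ± 0.22 (adjusted p = 0.00674), and the ratio was lower for 8 of 10. The lncRNA changes on Tenm4 ran from -0.45 to 1.64 and the ratio changes from -1.45 to 1.63, with 0 ratios called higher. Sparc, a matrix glycoprotein, had 4280, 3947, 5133 and 3889 CPM in HFD 1, 2, 3 and unmatched, against 1650, 1466, 1884 and 1803 CPM in normal diet 1 to 4, and NONMMUT009837.2 within it had 19.4 to 35.2 CPM on HFD, against 23.3 to 34.2 CPM on normal diet. Sparc rose by 1.34 ± 0.20 (adjusted p = 0.000914), NONMMUT009837.2 changed by -0.14 (adjusted p = 0.648), and the ratio fell by 1.49 ± 0.23 (adjusted p = 0.00177). Paqr9, a member of the progestin and adipoQ receptor family, had 200.5 to 393.1 CPM on HFD, against 19.1 to 35.3 CPM on normal diet. It rose by 3.58 ± 0.27 (adjusted p = 2.69e-05), the change of its lncRNA NONMMUT070487.2, 0.67, did not pass (adjusted p = 0.0704), and the ratio fell by 3.09 ± 0.32 (adjusted p = 0.000316). NONMMUT070487.2 rose by 1.11 when library sizes came from the lncRNA table (adjusted p = 0.015).

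**Figure D3:**
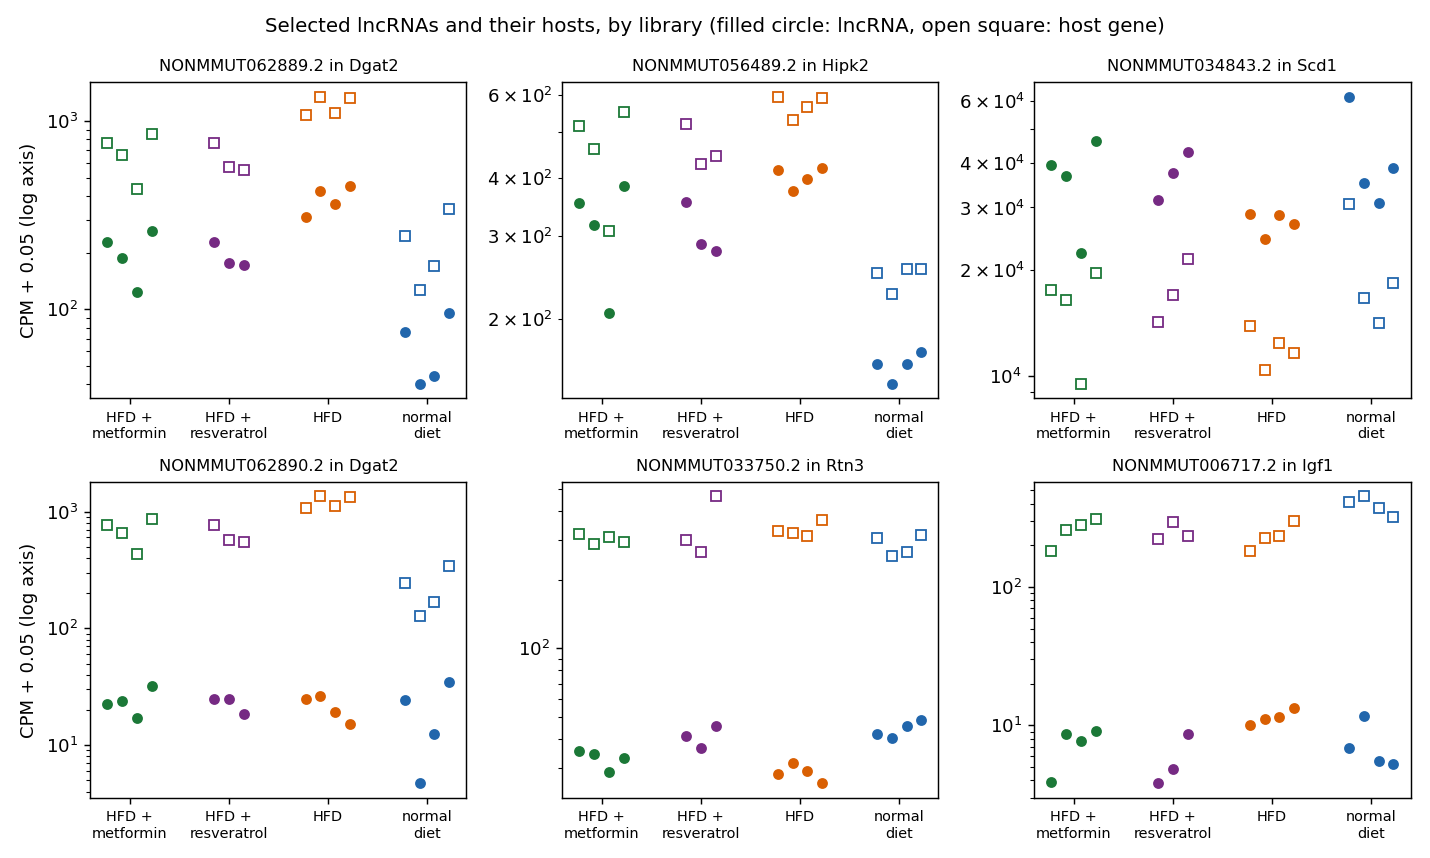
CPM plus 0.05 on a log axis of selected lncRNAs and of their hosts in each of 15 libraries, in the order metformin, resveratrol, HFD and normal diet. On Dgat2 NONMMUT062889.2 reaches 307.9 to 449.4 CPM on HFD, against 40.2 to 95.6 CPM on normal diet, while NONMMUT062890.2 on the same gene stays between 4.65 and 34.6 CPM in both groups.

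With either drug fewer members were called, and on the scaling used here mostly upward. With metformin 590 members rose and 101 fell relative to HFD, against 4.33% higher and 0.738% lower among all lncRNA features (5.06% called); 329 hosts rose and 402 fell, against 6.1% higher and 7.85% lower (13.9% called) among all genes. With resveratrol 282 members rose and 38 fell, against 1.92% higher and 0.279% lower among all features (2.19%); 95 hosts rose and 149 fell, against 1.09% higher and 3.09% lower (4.17%) among all genes. The median change was 0.26 with metformin and 0.29 with resveratrol over the members, and 0.31 and 0.32 over all lncRNA features. When library sizes came from the lncRNA table, the medians became -0.02 and -0.01 and the split turned round. It was then 57 higher and 232 lower with metformin, with 2.07% of all features called. With resveratrol it was 8 higher and 41 lower, with 0.381% of all features called. DESeq2 with its own size factors called 254 higher and 478 lower with metformin and 105 higher and 323 lower with resveratrol. Its shares over all features are again not given. Called in the same direction by both library sizes were 57 higher and 100 lower with metformin and 8 higher and 29 lower with resveratrol. These counts also rest on single libraries: without HFD 3, 13 members were called with metformin, and without HFD 2, 0 were called with resveratrol by edgeR, with 2571 at an unadjusted p under 0.05.

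Pairs were followed in the same way under the drugs, in comparisons that share the HFD libraries. The counts rest on library sizes from the mRNA table. With those from the lncRNA table the split of the lncRNAs turned round, as given above, and the pairs were not counted again. With metformin both rose in 170 pairs, both fell in 77 and 2 had a lncRNA that rose on a host that fell; with resveratrol the numbers were 52, 22 and 1. The log2 changes had the same sign in 68.23% of 11317 pairs with metformin (Pearson r = 0.5648, Spearman rho = 0.4997) and 68.63% with resveratrol (r = 0.4653, rho = 0.4783). The ratio rose in 53 pairs and fell in 2 with metformin, against 0.436% higher and 0.0205% lower (0.457%) among all pairs. After centring 1 rose and 1 fell, with 0.0205% of all pairs called. At an unadjusted p under 0.05 the ratio differed in 2250 members with metformin, against 19.3% of all pairs. With resveratrol limma called 0 pairs at the adjusted threshold and 1804 at an unadjusted p under 0.05, against 15% of all pairs, and edgeR with the host as offset also called 0. Metformin 2, 4 and unmatched and resveratrol 2 hold the ciliated-epithelium signal given above; without the 5 libraries over 500 CPM of that list, a setting added after the data were seen, 72 members were called with metformin and 17 with resveratrol. That setting leaves metformin 1 as the only metformin library, which the fit takes to vary like the other groups. Every metformin library, metformin 1 among them, also holds the Crisp1 signal given above, and its part was not tested.

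Some lncRNAs that fell on HFD rose with both drugs while their host passed in no comparison. NONMMUT047279.2 in Abca1, the cholesterol efflux transporter, had 45.5, 40.5, 40.5 and 37.6 CPM in metformin 1, 2, 4 and unmatched. Resveratrol 1 to 3 had 42.8, 39.9 and 52.6 CPM. It had 29.3, 31.3, 26.1 and 28.7 CPM in HFD 1, 2, 3 and unmatched, against 46.9, 46.7, 57.1 and 53.1 CPM in normal diet 1 to 4, so that the HFD libraries were the 4 lowest. It fell by 0.82 ± 0.11 on HFD (adjusted p = 0.000597) and rose by 0.51 ± 0.11 with metformin (adjusted p = 0.0304) and by 0.64 ± 0.12 with resveratrol (adjusted p = 0.0278). Abca1 changed by -0.27, -0.02 and 0.21 without passing. NONMMUT069792.2 in Rora, a nuclear receptor of the circadian clock, had 39.8 to 44.03 CPM with metformin, 41.4 to 49.8 CPM with resveratrol and 20.8 to 31.2 CPM on HFD alone, against 38.9 to 52.2 CPM on normal diet. It fell by 0.77 ± 0.13 on HFD (adjusted p = 0.00146) and rose by 0.67 ± 0.13 with metformin (adjusted p = 0.0233) and by 0.80 ± 0.14 with resveratrol (adjusted p = 0.025), and Rora passed in none (adjusted p = 0.556, 0.807 and 0.947). With library sizes from the lncRNA table the HFD call on the Rora lncRNA and the drug calls on both lncRNAs were lost. The drug calls were also lost without HFD 1, 2 or 3, and the ratio changes with the drugs did not pass.

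The rule for named genes also took the largest fitted changes, and several of these lncRNAs were at or near 0 in a whole group. NONMMUT012965.2 on C1qtnf1, a secreted protein of the adiponectin-like family, had 4.60, 1.58, 4.35 and 4.48 CPM in metformin 1, 2, 4 and unmatched. Resveratrol 1 to 3 had 0.596, 0.412 and 4.40 CPM. It had 0 counts in all 4 HFD libraries, against 2.46, 4.20, 2.09 and 3.99 CPM in normal diet 1 to 4. A count of 0 allows up to 3 counts per library, a mean of 0.161 CPM over the group, counting error only, so the lncRNA was at least 19.8-fold lower on HFD than on normal diet (adjusted p = 0.00163), and at least 23.4-fold higher with metformin (adjusted p = 0.0154) and at least 11.2-fold higher with resveratrol (adjusted p = 0.0302) than on HFD. C1qtnf1 itself rose by 0.73 ± 0.17 on HFD (adjusted p = 0.00924), and the ratio fell by 3.57 ± 0.40 (adjusted p = 0.000316) and with metformin rose by 3.33 ± 0.40 (adjusted p = 0.0115). The metformin call on the ratio was lost without HFD 1, that on the lncRNA without HFD 3, and the resveratrol call on the lncRNA without any one of HFD 1 to 3 or resveratrol 1 or 3. With the ciliated list as a covariate the metformin call on the ratio was lost as well. With all 16 libraries both drug calls on the lncRNA were lost. The resveratrol call was lost in 9 of 16 alternatives, among them that without the libraries over 500 CPM of the ciliated list. NONMMUT134577.1 on Zfp609, a regulator of myoblast growth, was likewise at 0 in all 4 HFD libraries and had 0.762 to 1.21 CPM with metformin, 0.715 to 1.24 CPM with resveratrol and 0, 0.879, 0.999 and 1.31 CPM on normal diet. It was at least 5.95-fold higher with metformin (adjusted p = 0.0247), at least 6.03-fold higher with resveratrol (adjusted p = 0.0323) and at least 4.97-fold lower on HFD than on normal diet (adjusted p = 0.00467). The host Zfp609 fell on HFD by 0.76 ± 0.09 (adjusted p = 0.000417) and rose by 0.42 (adjusted p = 0.0165) and 0.45 (adjusted p = 0.0364) with the drugs. Without the 5 libraries over 500 CPM of the ciliated list, the calls on HFD and with resveratrol were lost; the metformin group is then 1 library.

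NONMMUT067324.2 on Maf, a transcription factor, showed the reverse. It had 37.2 to 48.6 CPM with metformin, 41.5, 0.344 and 46.7 CPM in resveratrol 1 to 3 and 35.9 to 47.6 CPM on HFD, against 0.214 to 0.384 CPM on normal diet. All 4 HFD libraries were high and all 4 normal-diet libraries near 0, while resveratrol 2 had the low level: the lncRNA rose on HFD by 7.16 ± 1.04 (adjusted p = 0.00102), Maf fell by 0.53 ± 0.09 (adjusted p = 0.00187) and the ratio rose by 6.25 ± 1.01 (adjusted p = 0.00308). NONMMUT002689.2 in Kdm5b, a histone demethylase, had 13.8 to 15.8 CPM on HFD, against 1.11 to 1.82 CPM on normal diet, and 2.47, 35, 17.1 and 2.07 CPM in metformin 1, 2, 4 and unmatched. It rose on HFD by 3.34 (adjusted p = 0.02), a call lost without normal diet 2 and with no filter beyond 1 count. Its ratio rose on HFD by 3.15 ± 0.76 (adjusted p = 0.0173), a call lost without HFD 3, and Kdm5b changed by -0.17 (adjusted p = 0.519).

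NONMMUT121968.1 in Copg2, a coatomer subunit, had 0, 0, 0 and 0.663 CPM in HFD 1, 2, 3 and unmatched, against 26.1, 21.0, 7.01 and 24.7 CPM in normal diet 1 to 4, and Copg2 had 86.3 to 104.4 CPM on HFD and 67.7 to 87.5 CPM on normal diet. The lncRNA fell on HFD by 6.96 ± 1.90 (adjusted p = 0.0215), Copg2 changed by 0.19 (adjusted p = 0.153) and the ratio fell by 5.07 ± 1.14 (adjusted p = 0.0128). The call on the lncRNA was lost without HFD 1, 2 or 3. Its fitted size is loosely set with 3 HFD libraries at 0: leaving out 1 library moved it between -11.43 and -6.53, and the ratio change between -5.52 and -4.88. Metformin 4 and unmatched also had 0 CPM, whereas metformin 1 and 2 had 13.6 and 11.1 CPM, so the group itself was split. NONMMUT032265.2 on Tmed7, a cargo receptor of the early secretory pathway, had 0.0507, 66.3, 0.104 and 43.97 CPM in HFD 1, 2, 3 and unmatched, against 0.0768 to 0.303 CPM on normal diet. Its rise on HFD (7.16 ± 2.28, adjusted p = 0.0403) rests on 2 of 4 libraries and was lost in 11 of 17 alternatives. NONMMUT030754.2 in Cdkl4, a kinase gene, had 0.261 to 0.723 CPM on HFD, against 0.645 to 1.45 CPM on normal diet, with Cdkl4 at 20.7, 18.9, 30.1 and 5.84 CPM on HFD, against 0.615, 14.9, 0.749 and 0.586 CPM on normal diet. Its ratio fell by 3.63 ± 1.01 (adjusted p = 0.03), a call lost without any one of 6 libraries and after centring; the high host value on normal diet is in normal diet 2, the library with 1313 CPM of the ciliated list, and its part in the result was not tested. The rule also named NONMMUT073877.2 on Pcdh19, which rose by 6.93, NONMMUT025970.2 on Adipoq, which rose by 6.55, and NONMMUT020666.2 on Tmem260, which fell by 5.85, and these calls were lost in 11, 10 and 11 of 17 alternatives. For the ratio it named increases of 2.61 for NONMMUT013458.2 on Fam84a and of 2.59 for NONMMUT001066.2 on Gm28802.

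Under the drugs, NONMMUT001383.2 in Erbb4, a receptor tyrosine kinase, had 1.03, 2.87, 0.809 and 2.46 CPM in metformin 1, 2, 4 and unmatched and 0 in all 4 HFD libraries, at least 11.2-fold higher (adjusted p = 0.0349). Its host rose too (adjusted p = 0.0409), and the call on the lncRNA was lost in 12 of 18 alternatives. NONMMUT009159.2 past the 5′ end of Cpeb4, a translational regulator, had 0.202 to 0.293 CPM with metformin, against 21.5, 33.7, 37.2 and 0.241 CPM in HFD 1, 2, 3 and unmatched; it fell by 6.44 ± 1.64 (adjusted p = 0.0448), with Cpeb4 at -0.02 (adjusted p = 0.898). NONMMUT147447.1 in Arhgef11 had 0.0546 to 0.293 CPM with metformin, against 1.57, 0.0512, 4.59 and 3.92 CPM in HFD 1, 2, 3 and unmatched (-3.92 ± 0.88, adjusted p = 0.0311). In both of the last cases 1 of 4 HFD libraries had the low level of the metformin group, and the calls were lost in 12 of 17 and 6 of 12 alternatives.

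NONMMUT015654.2 in Evl, a regulator of actin assembly, had 1.78 to 5.57 CPM with metformin, against 1.30 to 3.19 CPM on HFD, while Evl had 14.1 to 24.9 CPM with metformin, against 75.6, 89.9, 83.1 and 26.1 CPM in HFD 1, 2, 3 and unmatched. The ratio rose by 2.39 ± 0.46 with metformin (adjusted p = 0.0452, lost in 12 of 20 alternatives) and fell by 2.73 ± 0.46 on HFD relative to normal diet (adjusted p = 0.00292). Evl fell by 1.83 with metformin (adjusted p = 0.012) and rose by 1.88 on HFD (adjusted p = 0.00209), whereas the changes of the lncRNA did not pass (adjusted p = 0.199 and 0.0661). Evl was high in HFD 1 to 3, the libraries with 17930 CPM or more of the macrophage list; the part of that list in the result was not tested. NONMMUT014694.2 in Syne2, a nuclear envelope protein, had 0.235 to 0.412 CPM with metformin and 0.319 to 0.412 CPM with resveratrol, against 1.33 to 2.47 CPM on HFD. It fell by 2.55 ± 0.37 with metformin (adjusted p = 0.0138) and by 2.36 ± 0.41 with resveratrol (adjusted p = 0.025), and its ratio fell by 1.92 ± 0.29 with metformin (adjusted p = 0.0299). The resveratrol call was lost in 8 of 17 alternatives and that on the ratio in 9 of 20. The ratio of NONMMUT001066.2 to Gm28802 fell by 1.78 ± 0.29 (adjusted p = 0.0452), with a host under 0.36 CPM throughout, and this call was lost in 10 of 19 alternatives.

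Among the decreases with resveratrol the rule named lncRNAs on Pparg and Ankdd1a. NONMMUT122872.1, which reaches past the 5′ end of Pparg, had 0.119, 0.0687 and 0.0637 CPM in resveratrol 1 to 3, against 1.52, 1.48, 1.46 and 1.57 CPM in HFD 1, 2, 3 and unmatched, and normal diet 1, at 0.154 CPM, was also low. It fell by 4.04 ± 0.71 (adjusted p = 0.025), with Pparg at -0.01 (adjusted p = 0.985). NONMMUT134568.1 on Ankdd1a followed its host, both at high levels in HFD 1 to 3: the lncRNA had 0.238, 0 and 0.319 CPM in resveratrol 1 to 3, against 1.72, 2.56, 2.14 and 0.482 CPM in HFD 1, 2, 3 and unmatched, and Ankdd1a had 0.701 to 1.91 CPM with resveratrol, against 14.3, 15.4, 11.7 and 1.87 CPM on HFD. The lncRNA fell by 3.15 ± 0.75 (adjusted p = 0.0462) and the ratio did not pass (adjusted p = 0.401). The calls on both lncRNAs were lost without any one resveratrol library. The rule also named rises of 5.30 for NONMMUT144155.1 on Ttll8 (metformin), 5.42 for NONMMUT026984.2 on Senp7 and 5.43 for NONMMUT038635.2 on Tspan18 (resveratrol), and these calls were lost in 12 of 16, 4 of 17 and 9 of 17 alternatives. Leaving out 1 library moved the Ttll8 value between 3.82 and 6.09. It named decreases of NONMMUT134569.1 on Ankdd1a (-3.38) and NONMMUT125911.1 on Anapc15 (-2.73) with metformin, calls lost in 2 of 13 and 11 of 18 alternatives. Its further ratio increases with metformin were 1.96 for NONMMUT149831.1 on Gm42791 and 1.53 for NONMMUT062372.2 on Zfp710 (adjusted p = 0.0452 each), lost in 12 of 19 and 12 of 20 alternatives.

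A small set of lncRNAs had levels that fell into a high and a low set of libraries, found without regard to group. The rule, written after the values were seen, asked for a gap of at least 3 log2 units between neighbouring libraries in order of level. At least 2 libraries had to lie on each side, and levels below 3 counts were first raised to 3 counts. By this rule 359 members (3.04%) on 334 hosts did so. They made up 13.1% of the lncRNAs at a 3′ end (150) and 1.6% of the internal single blocks (97). In 208 the low set never held more than 5 counts. The summed CPM of lncRNA and host varied less over the libraries than that of the host alone in 174 of the 359 (48.5%), against 65.4% of the other members. Of the 54 members called on HFD with a change of 3 log2 units or more, 12 were of this kind, among them those on Maf and Tmed7.

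NONMMUT005824.2 (chromosome 10, 61428875 to 61432943), an internal block of Eif4ebp2, a repressor of translation initiation, showed both sides at high counts. It had 1.03, 215.8, 252.9 and 245.6 CPM in metformin 1, 2, 4 and unmatched. Resveratrol 1 to 3 had 277.1, 1.10 and 0.892 CPM. It had 242.2, 248.6, 232.9 and 0.964 CPM in HFD 1, 2, 3 and unmatched, against 242.7, 0.910, 240.5 and 0.879 CPM in normal diet 1 to 4. Eif4ebp2 had 335.1, 45.3, 51.8 and 51.5 CPM in the same metformin libraries, 52.7, 261.8 and 337.1 CPM with resveratrol, 53.7, 57.5, 44.9 and 307.7 CPM on HFD, and 54.9, 284.0, 58.5 and 298.0 CPM on normal diet. In each library one of the pair was high and the other low, and each group held both kinds. The high values were of similar size, 215.8 to 277.1 CPM for the lncRNA and 261.8 to 337.1 CPM for Eif4ebp2. The pair may share reads, and whether counts passed from one to the other was not tested. No comparison passed for NONMMUT005824.2 (adjusted p = 0.857 on HFD, 0.997 with metformin, 0.842 with resveratrol). NONMMUT026527.2 at a 3′ end of Lrrc58 had 503.4 and 367.5 CPM in metformin 4 and unmatched and 0.686 and 0.586 CPM in metformin 1 and 2, and resveratrol 3 and HFD 2, at 0.765 and 0.614 CPM, were also low, while Lrrc58 had 715.6 to 1626 CPM over all 15 libraries.

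**Figure D4:**
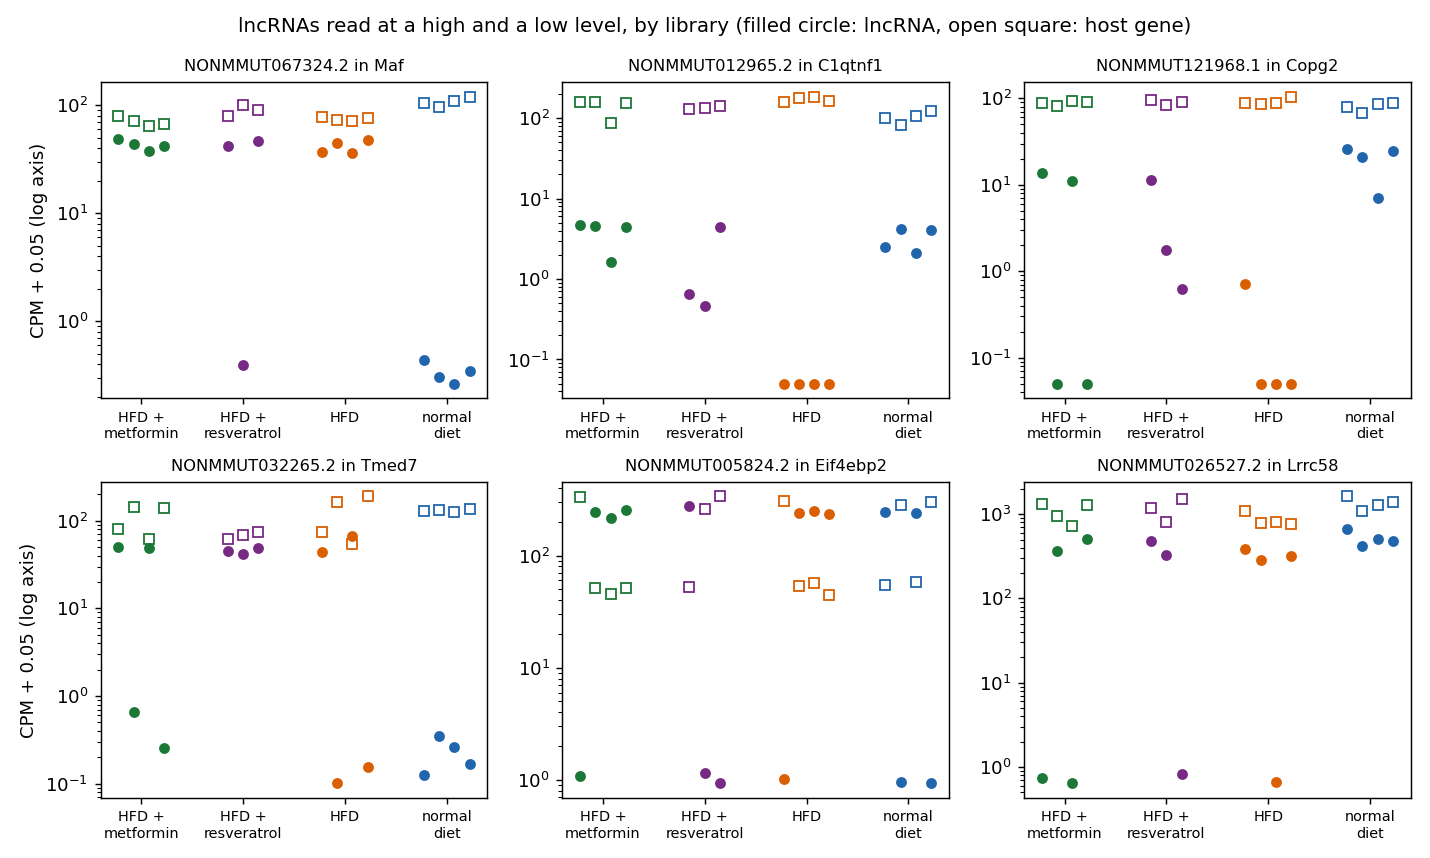
CPM plus 0.05 on a log axis of lncRNAs that were at or near 0 or at a low level in some libraries and high in others, beside their hosts, in each of 15 libraries in the order metformin, resveratrol, HFD and normal diet. NONMMUT005824.2 lies at 215.8 to 277.1 CPM or at 0.879 to 1.10 CPM within each group, with Eif4ebp2 low where the lncRNA is high.

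The hosts were also read by lists of genes of fat and its cells, drawn up with earlier results of these data known. Of 45 members tested on 8 genes of the circadian clock, 24 fell on HFD, 15 rose with metformin and 11 rose with resveratrol, and these were all the calls; 1 of the 8 hosts fell on HFD. Among all lncRNA features 20.6% fell on HFD, and 4.33% rose with metformin and 1.92% with resveratrol. Among all genes 9.34% fell on HFD. The median change was -0.66 on HFD, 0.60 with metformin and 0.56 with resveratrol over these members, and -0.47, 0.31 and 0.32 over all lncRNA features. Scaled to the lncRNA table, the medians kept their sign, at -0.24, 0.32 and 0.28, while 4 fell on HFD, and with metformin 3 rose and 1 fell. With resveratrol edgeR then called 0, with 19 at an unadjusted p under 0.05. On that scaling 8.93% of all features were called on HFD, 2.07% with metformin and 0.381% with resveratrol. Their medians over all features were -0.04, 0.035 and 0.03. Many of the 45 share a host, so these are not 45 separate observations. Beside the lncRNA of Rora given above, NONMMUT069797.2 in the same gene had 20.8, 24.4, 21.8 and 23.3 CPM in metformin 1, 2, 4 and unmatched, against 13.0, 15.3, 11.5 and 14.7 CPM in HFD 1, 2, 3 and unmatched. It rose by 0.73 ± 0.12 with metformin (adjusted p = 0.0154), with no overlap of the groups, and the call was lost without HFD 3. NONMMUT069790.2, another block in Rora, had 15.3 to 19.6 CPM with metformin, against 6.10 to 12.5 CPM on HFD, and rose by 0.89 ± 0.18 (adjusted p = 0.0247), a call lost in 8 of 18 alternatives, among them those without HFD 1, 2 or 3 or metformin 2.

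On 22 genes of insulin, AMPK and sirtuin signalling, 26 of 62 members fell on HFD, the ratio fell in 16 and rose in 1, and 6 hosts fell and 1 rose, against 20.6% of all lncRNA features and 14.7% of all ratios lower. Among all genes 13.8% rose and 9.34% fell on HFD. Scaled to the lncRNA table instead, 3 members rose and 2 fell, with 8.93% of all features called. After centring the ratio was higher in 3 and lower in 5, with 4.91% of all pairs called. The lncRNA of Insr given above is among the 62 members.

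On 24 lipid metabolism genes, 2 of 38 members rose and 8 fell on HFD, the ratio fell in 9, and 5 hosts rose and 2 fell, against 20.6% of all lncRNA features and 14.7% of all ratios lower. Among all genes 13.8% rose and 9.34% fell on HFD. Scaled to the lncRNA table, 2 members rose and 4 fell, with 8.93% of all features called. After centring the ratio was higher in 4 and lower in 4, with 4.91% of all pairs called. Cd36, the fatty acid transporter, had 4630 to 5496 CPM on HFD, against 3329 to 5085 CPM on normal diet, and NONMMUT051325.2 within it had 90.6 to 117.6 CPM on HFD, against 92.5 to 146.4 CPM on normal diet. Both ranges overlapped and neither change passed (adjusted p = 0.598 for the lncRNA and 0.397 for Cd36), while the ratio fell by 0.41 ± 0.11 (adjusted p = 0.0246), a call lost in 6 of 20 alternatives, among them those without HFD 3, normal diet 1 or normal diet 3. On 7 adipocyte genes, 1 of 12 members rose and 4 fell on HFD, the ratio fell in 4, and 1 host fell. Among all lncRNA features 2.32% rose and 20.6% fell, and 14.7% of all ratios were lower. Scaled to the lncRNA table, 0 of these members rose and 1 fell by edgeR, with 6 at an unadjusted p under 0.05. After centring the ratio was lower in 2. The shares over all features and pairs were again 8.93% and 4.91%. NONMMUT130135.1 on Adrb3, the beta-3 adrenergic receptor of adipocytes, ranged from 2.35 CPM in HFD 3 to 80.9 CPM in resveratrol 3 and passed in no comparison (adjusted p = 0.496 on HFD, 0.263 with metformin and 0.157 with resveratrol).

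On 11 macrophage and lysosome genes, Abca1 and Maf among them, 5 of 19 members rose and 5 fell on HFD, with a median change of 0.62, and the ratio rose in 3 and fell in 6, while 6 hosts rose and 1 fell. With metformin and with resveratrol 2 members rose and 2 fell, and 6 hosts fell in each. Among all lncRNA features 2.32% rose and 20.6% fell on HFD, 4.33% rose and 0.738% fell with metformin, and 1.92% rose and 0.279% fell with resveratrol. Of all ratios 0.941% were higher and 14.7% lower on HFD. Among all genes 13.8% rose and 9.34% fell on HFD, 7.85% fell with metformin and 3.09% fell with resveratrol. Scaled to the lncRNA table, 6 members rose and 3 fell on HFD, 0 rose and 3 fell with metformin, and 0 rose and 2 fell with resveratrol by edgeR, with 8 and 10 at an unadjusted p under 0.05 with the drugs. After centring, the ratio was higher on HFD in 3 and lower in 0. On 13 matrix genes edgeR called 0 of 19 members in each comparison at the adjusted threshold, with 3, 2 and 1 at an unadjusted p under 0.05 on HFD, with metformin and with resveratrol. Of their hosts, 5 were higher and 1 lower on HFD and 4 were lower with metformin. NONMMUT011619.2 on Col1a1, a chain of type I collagen, was one of the lncRNAs with a high and a low set of libraries. It had 33.8 and 38.9 CPM in HFD 2 and 3 and 0.152 and 0.121 CPM in HFD 1 and unmatched, while Col1a1 had 1688, 1648, 1649 and 742.2 CPM in HFD 1, 2, 3 and unmatched.

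Markers of other cells gave few members. The mesothelium list gave 7 tested members, the endothelium list 6, the ciliated-epithelium list 2 and the spermatogenic list 1, and edgeR called 0 of them in each comparison; at an unadjusted p under 0.05 on HFD there were 2 on mesothelium, 1 on ciliated-epithelium and 0 on the other hosts. NONMMUT005213.2 on Rsph4a, a radial spoke protein of motile cilia, had 9.26, 5.87 and 6.88 CPM in metformin 2, 4 and unmatched, 5.02 CPM in resveratrol 2 and 9.81 CPM in normal diet 2, and at most 0.121 CPM in the other 10 libraries, and Rsph4a was above 14 CPM in those 5 libraries and at most 0.209 CPM in the others. These 5 are the libraries with 650 CPM or more of the ciliated list, and they cross the groups. NONMMUT036531.2 in Odf2, a protein of sperm flagella and centrioles, had 1.86 to 3.05 CPM in all 15 libraries, while Odf2 had 368.1 CPM in metformin 2 and 43.2 to 61.0 CPM in the other 14. The lists for epididymis, lymphocytes, skeletal muscle and retina held no host of a member.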

How the data were processed

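Total RNA of epididymal fat was made into TruSeq libraries and read on a NovaSeq, per the labels' protocols. The deposited lncRNA table holds raw counts and FPKM per transcript and the mRNA table raw counts per transcript, per the file headers. Reads were handled with fastp and HISAT2 on build GRCm38, per the submitters' processing notes; no source used here gives versions, the counter, the annotation or a strand setting. Counts were used for all results; FPKM from the authors' lncRNA table served only to check column names.

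The header of the mRNA table is shifted, so its columns were taken by position. The totals that FPKM implies differed from the summed counts by at most 0.0418% in the 14 libraries checked, and from any other library's by 0.4893% or more. The 91879 mRNA records (5 rejoined over a line break) were summed to 27150 genes, and lncRNA rows to 76125 features. A total of 18 value columns were not used. Resveratrol 4 was left out of the fits because Crisp1 exceeded 1000 CPM there. CPM, as edgeR computes it, is the count over the library's total of mRNA-table counts times its TMM factor. The sums over marker lists and the Crisp1 values use that total without the TMM factor.

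LncRNA features and genes were each fitted as a whole table with edgeR 4.0.16 (robust quasi-likelihood, filterByExpr, all 4 groups sharing the dispersion), and log2 ratios of lncRNA to host, with 0.5 CPM added to each, with limma 3.58.1 (trend, robust) in R 4.3.3. P-values were adjusted by Benjamini-Hochberg over all features of a fit, with a threshold of 0.05. Of the members, 116 failed the filter on low counts. Alternatives, listed with their effect in the closing section, included DESeq2 1.42.0, other library sizes and filters, and leaving out each library. On simulated HFD changes, the lncRNA fit of 23846 features recovered 100% of 200 changes of 4-fold with 3.8% false calls, and the ratio fit of 14546 pairs 62.5% with 4.6%. Every simulated feature had a dispersion of 0.1, hosts were unchanged, and lncRNA and host were drawn independently. The changed lncRNAs came from the more abundant ones. Recovery near 0.5 CPM, or where real libraries vary more, was therefore not measured. Floors for a count of 0 cover counting error only. The ± values are standard errors of the fits and include the spread between libraries.

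Named lncRNAs are the 10 with the highest mean level, up to 4 per direction with the largest called change of the lncRNA or of the ratio in each comparison (1 per host), and up to 3 of the highest level per host list. Others are marked as picked after their values were seen, and a few named by the rule are not reported here. The members and lists were chosen with earlier results of these data known.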

Additional observations from a re-analysis of the deposited data

Results flagged for a closer look

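In 24 of 216 groups of 4 libraries tested (22 of 72 named lncRNAs), 1 library's log2 ratio of lncRNA to host stood apart from the other 3, with a gap, as a share of the whole range, above Dixon's 95% critical value. Chance alone flags about 1 group in 20. No other kind of flag was raised. Metformin 2 has 6 of these values; it also has the highest sums of the ciliated-epithelium and spermatogenic lists, 1965 and 2877 CPM, and their part was not tested.

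In metformin 2 the log2 ratio was -5.39 for NONMMUT012965.2 to C1qtnf1 (-5.01 to -4.95 in the other 3), -6.24 for NONMMUT026984.2 to Senp7 (-3.53 to -3.39) and -6.70 for NONMMUT036531.2 to Odf2 (-4.66 to -4.27). It was -0.67 for NONMMUT054852.2 to Upk3b (-4.52 to -4.28), -4.49 for NONMMUT012387.2 to Pecam1 (-4.97 to -4.92) and -2.68 for NONMMUT088227.1 to Hdac9 (-3.25 to -3.19). In metformin 1 it was 2.29 for NONMMUT055857.2 to Cav1 (2.92 to 3.03 in the other 3), -9.80 for NONMMUT099540.1 to Adipoq (-6.48 to -6.11) and -7.78 for NONMMUT005824.2 to Eif4ebp2 (2.24 to 2.28). In metformin 4 it was -3.93 for NONMMUT058486.2 to Pparg (-3.22 to -3.08).

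In HFD unmatched the log2 ratio was 1.06 for NONMMUT034843.2 to Scd1 (1.21 to 1.23 in the other 3), -0.45 for NONMMUT144155.1 to Ttll8 (0 in each), -3.93 for NONMMUT125911.1 to Anapc15 (-2.61 to -2.48) and -7.72 for NONMMUT005824.2 to Eif4ebp2 (2.10 to 2.36). In HFD 2 it was 13.40 for NONMMUT144872.1 to CT010467.1 (13.65 to 13.66) and -9.49 for NONMMUT026527.2 to Lrrc58 (-1.50 to -1.26). In HFD 3 it was -7.22 for NONMMUT062786.2 to Tenm4 (-6.36 to -6.32) and -6.93 for NONMMUT141857.1 to Pnpla8 (-6.00 to -5.83). A log2 ratio of 0 is what the added 0.5 CPM gives where lncRNA and host both have 0 counts. The Ttll8 flags, here and in normal diet 2, are set against such values. CT010467.1 was too low to be tested, and the added 0.5 CPM weighs in its ratio too.

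In normal diet 2 the log2 ratio was -3.67 for NONMMUT030754.2 to Cdkl4 (0.08 to 0.64 in the other 3), -0.71 for NONMMUT144155.1 to Ttll8 (0 to 0.13), 4.88 for NONMMUT149831.1 to Gm42791 (3.92 to 4.05) and -4.64 for NONMMUT065664.2 to Gpm6a (-0.12 to 0.09). In normal diet 3 it was -3.51 for NONMMUT121968.1 to Copg2 (-1.80 to -1.60). In normal diet 4 it was -1.25 for NONMMUT069792.2 to Rora (-0.65 to -0.53).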

How the results depend on the processing

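Counts below are members, or hosts of members, called in the order HFD, metformin and resveratrol unless a comparison is named. Counts not given were within 1.5 times the value in the report. With all 16 libraries, lncRNA calls were 1653, 6 and 194, host calls 543, 26 and 113, and ratio calls 1 with metformin and 89 with resveratrol. With the ciliated list as a covariate, metformin had 53 lncRNA, 21 host and 0 ratio calls (limma; 1465 at an unadjusted p under 0.05) and resveratrol 556, 467 and 3. Without both unmatched columns, resveratrol had 672 lncRNA, 627 host and 75 ratio calls and metformin 131 ratio calls. With only the 2 groups compared, metformin had 18 lncRNA, 326 host and 1 ratio call, and resveratrol 9 lncRNA calls, 0 host calls by edgeR (1492 unadjusted) and 6 ratio calls. Without a filter beyond 1 count, lncRNA calls were 1905, 144 and 43, host calls 478 with metformin and 4 with resveratrol, and ratio calls with resveratrol 1. With library sizes from the lncRNA table, lncRNA calls were 1114, 289 and 49, and DESeq2 with its own size factors called 1387 on HFD. Ratio calls with metformin were 132 with a pseudocount of 2 CPM and 13 by edgeR with the host as offset. Ratio calls with resveratrol were 1 for members at least 0.5 inside the host and 1 for hosts of at least 1 CPM.

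These settings were chosen after seeing the data: without libraries over 500 CPM of the ciliated list, which leaves metformin 1 as the only metformin library, assumed to vary like the other groups, lncRNA calls were 72 with metformin and 17 with resveratrol, host calls 6 and 6, and ratio calls 1126 on HFD and 11 with resveratrol; after centring each library on its median log2 ratio, ratio calls were 576 on HFD and 2 with metformin, and the HFD change of NONMMUT009091.2 on Sptbn1 turned to 0.26 (adjusted p = 0.0327), against -0.02 uncentred.

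Leaving out 1 library at a time, lncRNA calls ran from 1995 (without HFD 3) to 3341 on HFD, from 13 (without HFD 3) to 1075 with metformin and from 0 (without HFD 2) to 868 with resveratrol. Host calls ran from 1010 (without HFD 3) to 1626 on HFD, from 154 (without HFD 3) to 1044 (without metformin 1) with metformin and from 0 (without HFD 1) to 717 with resveratrol. Ratio calls ran from 995 (without HFD 3) to 1832 on HFD, from 0 (without HFD 1) to 237 with metformin and from 0 to 96 with resveratrol. The upper ends are without HFD unmatched except where named. Of 103 calls on named lncRNAs, 33 were kept in every alternative run. Over single named lncRNAs and alternatives, 7600 values kept their side of the threshold, 450 lost a call, 168 gained one and 1 reversed with a call. Sign changes of values without a call are not counted as reversed. The HFD change of NONMMUT112083.1 on Bcar3 went from -0.03 to 0.39 with library sizes from the lncRNA table, without a call in either. The cause was not tested.

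No paired analysis was possible because the labels number no replicates across groups. Depth limits members near 0.5 CPM: 116 of 11790 failed the filter on low counts.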
